A study of Mus musculus with 12 samples.

Results

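Tubulin isotypes are the gene products that paclitaxel meets in a cell: the drug binds β-tubulin in the wall of the microtubule. The 10 genes followed here were chosen by symbol, with earlier results of these data known. They are the α-tubulin genes Tuba1a, Tuba1b, Tuba1c and Tuba4a and the β-tubulin genes Tubb2a, Tubb2b, Tubb3, Tubb4b, Tubb5 and Tubb6. All 10 members were found among the 46078 genes of the deposited count table. The libraries are polyA RNA from tumours that grew in BALB/c mice from 300000 cells of 4T1, a metastatic carcinoma line of the mouse mammary gland, marked with firefly luciferase and placed in mammary fat pad number 4. All groups share that line and site, and the genotype is labelled WT. Treatment started on day 14 and ran for 2 weeks, with harvest on day 28. The vehicle group had no drug, the MBQ-167 group had 100 mg/kg 5 times a week, the paclitaxel group had 5 mg/kg 1 time a week, and the combination group had both schedules. MBQ-167 is a drug against Rac and Cdc42, small GTPases that shape the cytoskeleton. Each group has 3 libraries, labelled as biological replicates. Nothing says that each is a separate mouse, so p-values measure only the spread between these libraries. Cells were injected on 2 occasions, which are mentioned without a map to libraries, so a part of occasion in any difference was not tested.

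Microtubules are hollow polymers of α-tubulin and β-tubulin dimers. They form the mitotic spindle and carry transport in the resting cell, and paclitaxel stabilises them. Cells hold several genes for each subunit, whose proteins differ mostly in their acidic tails. When free tubulin rises, cells degrade tubulin mRNA through a factor, TTC5, that reads the first residues of the nascent chain on the ribosome. In breast and other carcinomas the isotype made by TUBB3, which is best known in neurons, is widely studied in connection with taxane response.

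The coding sequences show which members a short read can tell apart, which decides how far each level below stands for one gene. The α-tubulin genes Tuba1a, Tuba1b and Tuba1c lie together on chromosome 15 and their coding sequences are 97.1% to 98.3% identical, with the highest value between Tuba1a and Tuba1b.

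The β-tubulin genes Tubb2a and Tubb2b sit side by side on chromosome 13 and are 96.5% identical in coding sequence, with an identical transcript stretch of 551 bases. Their last 60 coding bases, which encode the acidic tail, are printed with capitals where they differ, at chr13:34074468-34074527 and chr13:34127471-34127530 on the minus strand (GRCm38, transcripts of GENCODE vM21).
Tubb2a: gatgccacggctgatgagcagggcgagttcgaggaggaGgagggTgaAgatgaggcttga
Tubb2b: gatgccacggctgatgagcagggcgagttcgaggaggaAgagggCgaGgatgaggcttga
Only 3 of the 60 columns differ. The remaining β pairs are 80.2% to 85.9% identical, and the longest stretch that the Tubb5 transcript shares with any of Tubb2a, Tubb3, Tubb4b and Tubb6 is 50 bases, with Tubb2a.

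The beginning of the coding sequence is what the autoregulatory factor reads once it is translated, and it is shown for 1 gene of each kind of start in the α genes and for 4 β genes, with the first 12 bases in capitals and positions counted from the A of the start codon. The stretches of Tuba1a (chr15:98951665-98953453) and Tuba4a (chr1:75217408-75219195) cross an intron, and the β stretches lie at chr13:34077900-34077929, chr13:34130204-34130233, chr2:25224561-25224590 and chr17:35838024-35838053, all on the minus strand.
Tuba1a: ATGCGTGAGTGCatctccatccatgttggc
Tuba4a: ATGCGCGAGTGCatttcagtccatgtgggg
Tubb2a: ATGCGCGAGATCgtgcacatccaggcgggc
Tubb2b: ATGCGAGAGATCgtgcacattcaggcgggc
Tubb4b: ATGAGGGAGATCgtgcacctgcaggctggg
Tubb5: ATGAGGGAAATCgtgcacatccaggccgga
Tuba1a, Tuba1b and Tuba1c hold the same first 12 bases, and Tubb3 holds those of Tubb4b.

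To put a number on the ambiguity, every 75-base window of each member's main transcript was looked up in the transcripts of all other annotated genes, on both strands. Tuba1b had the largest shared part, with 78.3% of its windows held word for word elsewhere, followed by Tuba1a with 70.4% and Tuba1c with 56.7%. Most of this was shared among themselves and with pseudogenes and the models Gm49450 and AC157548.1, which are not rows of the count table. Slc7a11, a cystine transporter gene with 294 to 1666 counts per library, held 2.2% of the Tuba1a windows and 2.8% of the Tuba1b windows. Counting only partners that are rows of the table, Tuba1b shared 69.6% and Tuba1a 56.1%. Of the Tubb2a windows 43.2% were shared, mostly with Tubb2b, and of the Tubb2b windows 32.2%, mostly with Tubb2a. Tubb4b shared 40.9%, chiefly with its pseudogene Tubb4b-ps1, which itself had 40 to 116 counts per library, and its exons also overlap Fam166a on the opposite strand. Tuba4a shared 47.2%, all of it with Stk16, a kinase gene on the opposite strand whose exons overlap it. Tubb3, Tubb5 and Tubb6 shared none. The read length, the strand setting and what was done with reads that match several places do not appear in the labels or file, so the levels of Tuba1a, Tuba1b, Tuba1c, Tubb2a, Tubb2b and Tubb4b are uncertain in how reads were split, and that of Tuba4a in whether reads of Stk16 were kept out.

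**Figure D1:**
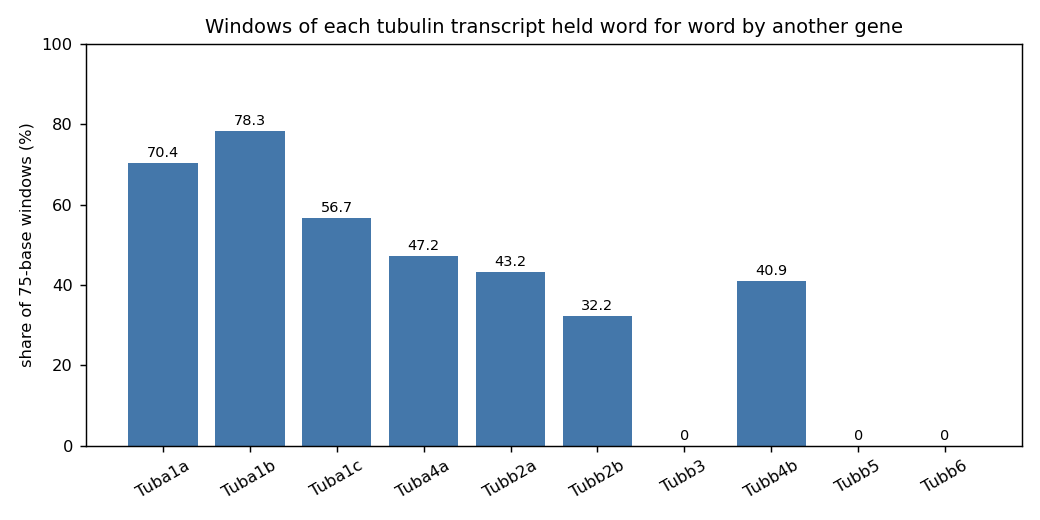
Share of 75-base windows (in percent, vertical axis) of each tubulin gene's main transcript that a transcript of another annotated gene holds word for word, on either strand. The bars stand at 0 for Tubb3, Tubb5 and Tubb6 and reach 78.3% for Tuba1b.

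The libraries differed in ways that touch what follows. Total counts ran from 11540557 to 17001562, of which a block of ribosomal RNA and lincRNA features on chromosome 17 took 17.11% to 37.54%. Across genes, the correlation of GC content with the deviation of a gene's log2 level from its mean was 0.116 to 0.293 in the vehicle libraries, 0.006 to 0.139 with MBQ-167, -0.287 to -0.114 with paclitaxel and -0.192 to -0.027 in the combination. The summed level of 10 neutrophil markers was 1400 CPM in vehicle 3 and 320 and 326 CPM in the other vehicle libraries, against 88.3 to 211 CPM in the 9 drug libraries. Markers of carcinoma epithelium (Epcam, Cdh1 and 5 keratins) summed to 925 to 2820 CPM, so the tumour label has its defining genes in all libraries. Neuron markers summed to at most 3.16 CPM, with Elavl4 at 0 counts throughout.

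The most abundant tubulin mRNA of these tumours was Tubb5 (ENSMUSG00000001525, GRCm38 chromosome 17, 35833921 to 35838306), the class I β isotype found in most cell types. Levels of different genes were compared as CPM (each count scaled to 1000000 counts, with library sizes corrected by TMM) per kilobase of exon. On that scale Tubb5 stood at 345.3 in the vehicle tumours, 272.6 with MBQ-167, 243.9 with paclitaxel and 257.2 in the combination (means, n = 3 each). It made up 79.9% ± 0.93 (SD, n = 3) of the summed β level in vehicle, 79.0% ± 2.36 with MBQ-167, 79.5% ± 0.698 with paclitaxel and 79.4% ± 2.44 in the combination. Next came Tubb4b (ENSMUSG00000036752, chromosome 2, 25222160 to 25224702), a broadly expressed isotype also found in cilia, at 39.0 CPM per kilobase in vehicle, and Tubb6 (ENSMUSG00000001473, chromosome 18, 67390717 to 67402749) at 36.4. Libraries of these neighbours overlapped in every group, and their order turned round in the combination, at 29.5 for Tubb6 and 29.3 for Tubb4b. The order of the 10 means was the same in the vehicle, MBQ-167 and paclitaxel tumours.

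Among the α genes Tuba1a (ENSMUSG00000072235, chromosome 15, 98949837 to 98953703), prominent in developing neurons, and Tuba1c (ENSMUSG00000043091, chromosome 15, 99029891 to 99038110) led with 29.8 and 28.1 CPM per kilobase in vehicle, and their libraries overlapped in all 4 groups. Libraries of Tuba1a and Tubb6, the next gene above it, overlapped in vehicle and with MBQ-167 only. Tuba1b (ENSMUSG00000023004, chromosome 15, 98931425 to 98934565), the ubiquitous α isotype, followed with 14.3, below every Tuba1c library in vehicle and in the combination but not with either single drug. Tuba4a (ENSMUSG00000026202, chromosome 1, 75214228 to 75219865), an isotype made without a final tyrosine, had 10.1, and Tubb2a (ENSMUSG00000058672, chromosome 13, 34074274 to 34078007) had 9.32. Libraries of Tuba4a and Tubb2a overlapped in vehicle and in the combination, and not with either single drug. Tubb2b (ENSMUSG00000045136, chromosome 13, 34126748 to 34130466) had 1.85, apart from its neighbours on both sides in every group. Tubb3 (ENSMUSG00000062380, chromosome 8, 123411424 to 123422015) was last in all 4 groups with 0.0649 to 0.133. Markers of platelets and megakaryocytes, in which Tuba4a is abundant, summed to 12.4 to 30.8 CPM over the libraries.

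**Figure D2:**
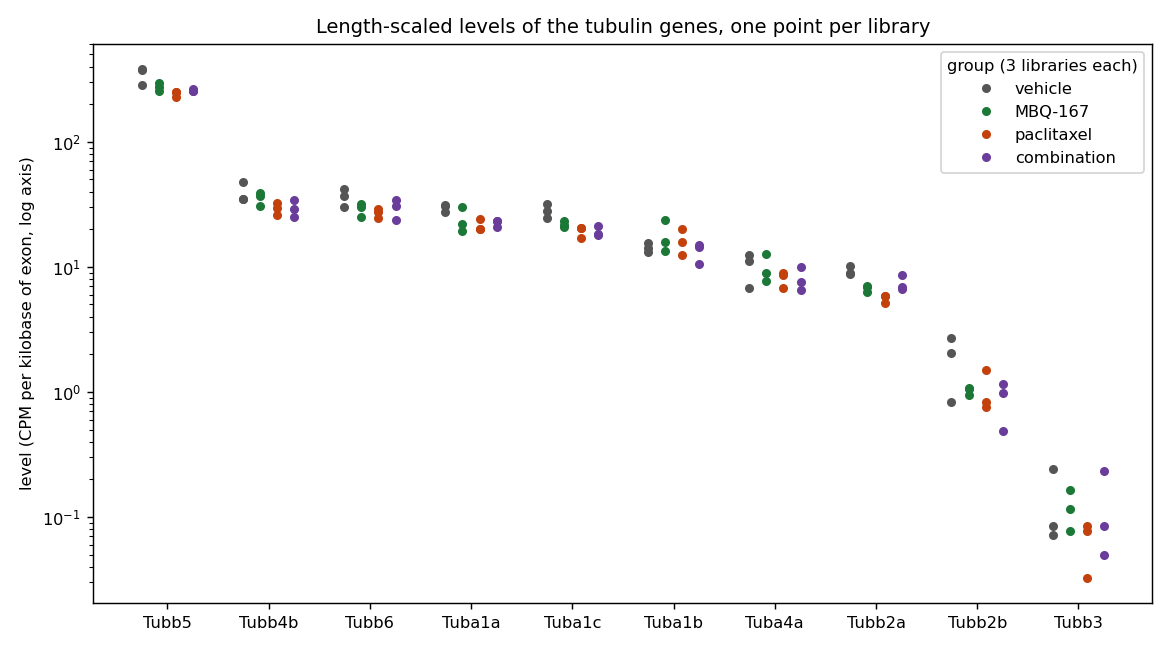
Level of each tubulin gene in CPM per kilobase of exon (log axis), with 1 point per library and the 4 groups side by side. Tubb5 lies above every other member in all 12 libraries, Tubb3 lies below every other member, and the others lie between.

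The α genes lay differently when levels were divided by the length that a read can place without doubt. This scale is right only if reads from shared windows were not counted, which is not known. If they were counted, it overstates genes with a large shared part, and Tuba1b had the largest. Per kilobase of unshared 75-base windows, a scale chosen after seeing the data, vehicle tumours had 105.2 for Tuba1a, 77.6 for Tuba1c and 74 for Tuba1b, the same order as on the exon scale with Tuba1b closer to Tuba1c. In the drug groups the mean of Tuba1b was above that of Tuba1c on this scale, at 91.2 against 60.5 with MBQ-167, 83.1 against 53.4 with paclitaxel and 68.8 against 52.9 in the combination. Tubb5 remained highest with 446.1, ahead of Tubb4b with 90.5 and Tubb6 with 52.7. The ratio of summed β to summed α level in vehicle was 5.24 ± 0.242 (SD, n = 3) per kilobase of exon and 2.15 ± 0.123 per kilobase of unshared windows. The β sum exceeded the α sum on both scales, by amounts that differ with the length used.

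Paclitaxel alone gave the most tubulin calls against vehicle. Of the 9 members that passed the filter on low counts, 3 fell (Tubb2a, Tuba1c and Tubb5) and none rose in edgeR's quasi-likelihood test with Benjamini-Hochberg adjustment over 18252 genes, where 5.66% of all genes passed and 2.49% passed as lower. The log2 fold change was below 0 for 8 of the 9 (50.2% of all genes), with a median of -0.48, against a median of 0 over all genes tested. An unadjusted p under 0.05 was reached by 6 of the 9 (22.6% of all genes). For 6 of the 9 all paclitaxel libraries lay below all vehicle libraries, a pattern seen in 12.1% of all genes. Erythroid markers, which also separate vehicle (258 to 265 CPM summed) from the 9 drug libraries (14.5 to 108 CPM), and the neutrophil markers above moved with the same groups. All 7 carcinoma epithelium markers were below 0 with paclitaxel, with a median of -0.76, and Krt8 passed (-0.80 ± 0.18, adjusted p = 0.0236), though the summed levels overlapped. That list's median was -0.96 with MBQ-167 and -0.66 in the combination, with no gene passing. Of the neutrophil markers 10 of 10 passed as lower with paclitaxel (median -3.19), and of the erythroid markers 3 of 6 (median -2.38). In the combination 9 of 10 and 3 of 6 passed as lower (0.811% of all genes), and with MBQ-167 none did. The medians were -2.82 and -2.67 in the combination and -1.77 and -1.69 with MBQ-167. With MBQ-167 an unadjusted p under 0.05 was reached by 10 of 10 and 4 of 6 (12.9% of all genes). Of 8 T and NK cell markers 1 rose with paclitaxel, Klrd1 (2.93 ± 0.61, adjusted p = 0.016), and the list's median was 0.87. In the combination 1 of the 8 also passed as higher (1.84% of all genes passed in either direction), with a median of 0.75. The median with MBQ-167 was 0.64, and none passed. Klrd1 was a low gene, at 0 to 2.61 CPM over the libraries. The part of these cell types in the tubulin differences was not tested. In bulk tissue, fewer cells of a type and less RNA per cell cannot be told apart.

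Tubb5 measured 1262, 939 and 1246 CPM in vehicle 1 to 3 and 834, 763 and 837 CPM in paclitaxel 1 to 3. The groups did not overlap, and vehicle 2 was the low vehicle library. The mean went from 1149 ± 182 (SD, n = 3) to 811.4 ± 41.8 CPM. On the log2 scale Tubb5 changed by -0.50 ± 0.13 (SE, adjusted p = 0.0364, 95% interval -0.78 to -0.23).

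Tubb2a, whose product resembles that of Tubb2b, had the largest fall of the 3. Its levels were 16.5, 14.2 and 14.4 CPM in the vehicle libraries and 9.35, 9.40 and 8.28 CPM in the paclitaxel libraries. The libraries of each group lay close together and well apart from those of the other. Its log2 change was -0.74 ± 0.16 (SE; adjusted p = 0.0184, 95% interval -1.07 to -0.40). With the counts of Tubb2b added to those of Tubb2a, an alternative chosen after seeing the data, it was -0.76 ± 0.17 (adjusted p = 0.0195).

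Tuba1c had 73.0, 56.0 and 63.6 CPM in vehicle and 38.8, 46.8 and 46.9 CPM with paclitaxel. No library of one group reached the other, and paclitaxel 1 was the lowest of all 12. Its log2 change was -0.54 ± 0.13 (SE; adjusted p = 0.0263). The counts of Tuba1a, Tuba1b, Tuba1c and 6 pseudogenes added up, which mix genes of different changes, gave -0.36 ± 0.11 (adjusted p = 0.0708). How the split of reads between the copies bears on the Tuba1c call was not tested.

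A further 3 members lay lower in every paclitaxel library without passing. Tuba1a had 55.0, 49.8 and 56.4 CPM in vehicle and 43.7, 35.9 and 36.0 CPM with paclitaxel (-0.48 ± 0.15, adjusted p = 0.0753). For Tubb4b the vehicle libraries had 99.8, 72.4 and 72.3 CPM and the paclitaxel libraries 61.5, 53.9 and 67.7 CPM (-0.42 ± 0.16, adjusted p = 0.134). Vehicle 1 stood well above the other 2 vehicle libraries for Tubb4b. Markers of ciliated epithelium, in which Tubb4b is abundant, summed to 7.78 to 11.6 CPM in vehicle and 13.4 to 21.6 CPM with paclitaxel. Of that list Dnah5 and Rsph1 had at most 2 and 3 counts in any library, and Ccdc39 had the highest median (8.51 CPM). The sum may therefore not measure ciliated cells, and their part in the Tubb4b level was not tested. Tubb6, a minor β isotype that disturbs microtubule arrays when made in excess, had 89.5, 73.9 and 102.8 CPM in vehicle and 60.5, 66.7 and 70.6 CPM with paclitaxel (-0.43 ± 0.16, adjusted p = 0.117).

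The remaining tested members overlapped between these groups. Tuba1b read 26.5, 24.5 and 29.3 CPM in vehicle and 37.4, 23.2 and 29.6 CPM with paclitaxel, with paclitaxel 1 highest and paclitaxel 2 lowest (0.17 ± 0.22, adjusted p = 0.692). Tuba4a read 41.4, 24.9 and 45.8 CPM in vehicle and 25.1, 31.7 and 33.2 CPM with paclitaxel (-0.32 ± 0.23, adjusted p = 0.45). Tubb2b had 62, 24 and 91 counts in vehicle and 71, 22 and 31 counts with paclitaxel, and its wide interval of -1.74 to 0.07 holds both no change and a large fall. Tubb3, the neuronal isotype, had 6, 2 and 2 counts in vehicle, 3, 2 and 5 with MBQ-167, 3, 2 and 1 with paclitaxel and 1, 7 and 3 in the combination. These counts are too few for a test, so no change of Tubb3 in any group was detectable at this depth.

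**Figure D3:**
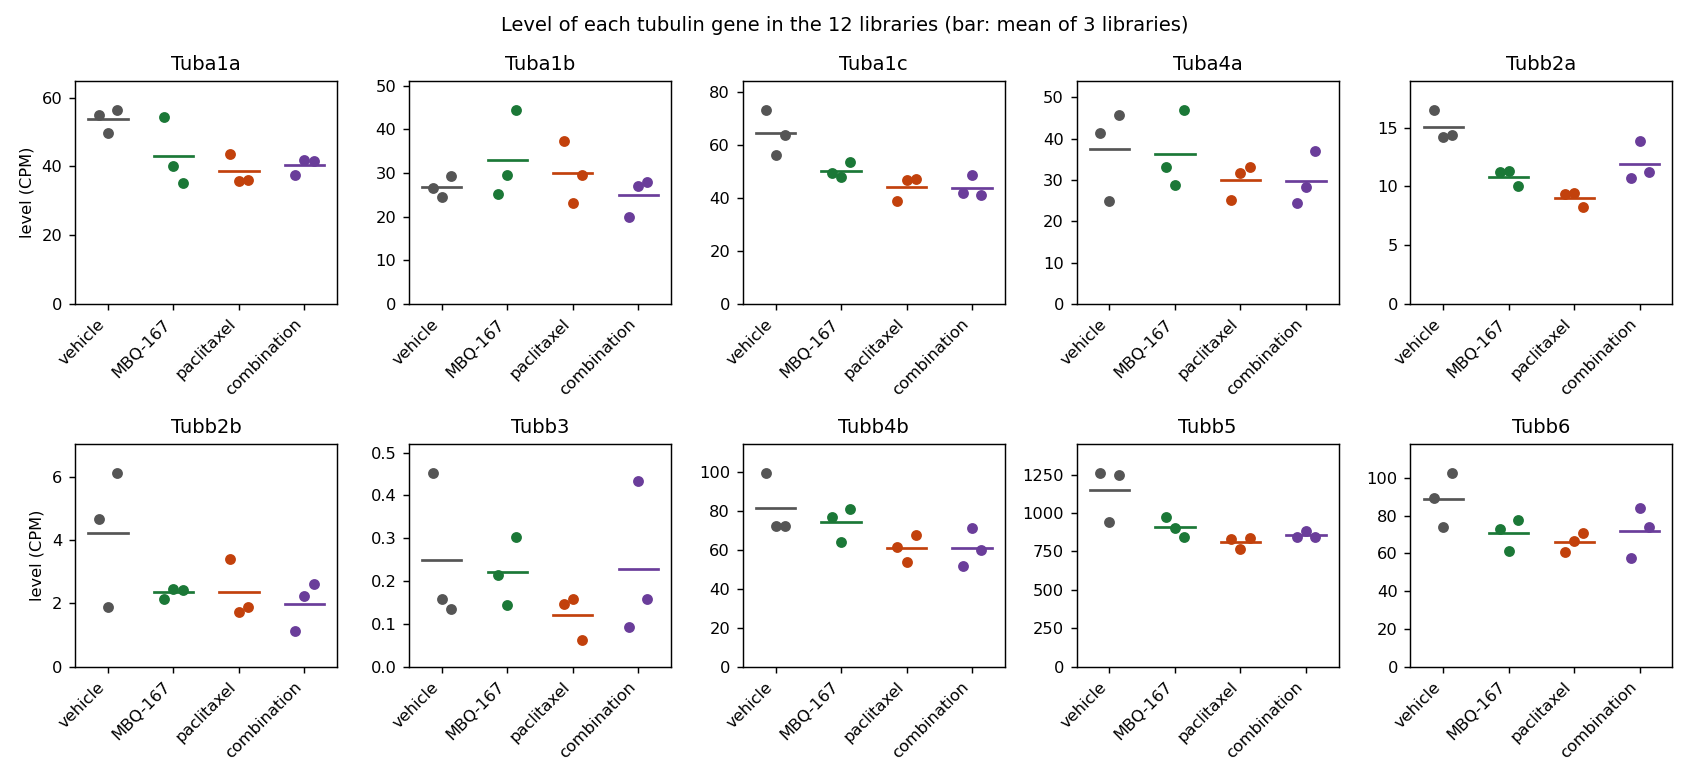
Level of each tubulin gene in CPM (vertical axis of each panel, from 0) in the 12 libraries, with 1 point per library, groups along the horizontal axis and a bar at the mean of 3 libraries. For Tubb5, Tuba1c and Tubb2a all 3 paclitaxel points lie below all 3 vehicle points, while those of Tuba1b, Tuba4a, Tubb2b and Tubb3 overlap.

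The calls with paclitaxel moved with the libraries and with GC content. A correction for GC content gave -0.43 for Tubb5, -0.42 for Tuba1c and -0.62 for Tubb2a, and none passed (adjusted p = 0.11, 0.113 and 0.0624). None passed either when neutrophil markers were a covariate, with changes of -0.37, -0.67 and -0.85 in the same order (adjusted p = 0.423, 0.16 and 0.149). That covariate, the centred mean log2 level of the markers, was 0.818 to 3.263 in vehicle and -1.528 to -0.312 with paclitaxel. As it sets these groups apart, the fit loses precision, and loss of a call cannot be told apart from that. Without vehicle 3, the library rich in neutrophil markers, Tuba1c (-0.55) and Tubb2a (-0.77) still passed and Tubb5 (-0.44, adjusted p = 0.0718) did not. None of the 3 passed without vehicle 1, paclitaxel 1 or paclitaxel 2, and only Tuba1c passed without paclitaxel 3. The part of GC content, neutrophil markers and single libraries in these falls was not tested further.

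**Figure D4:**
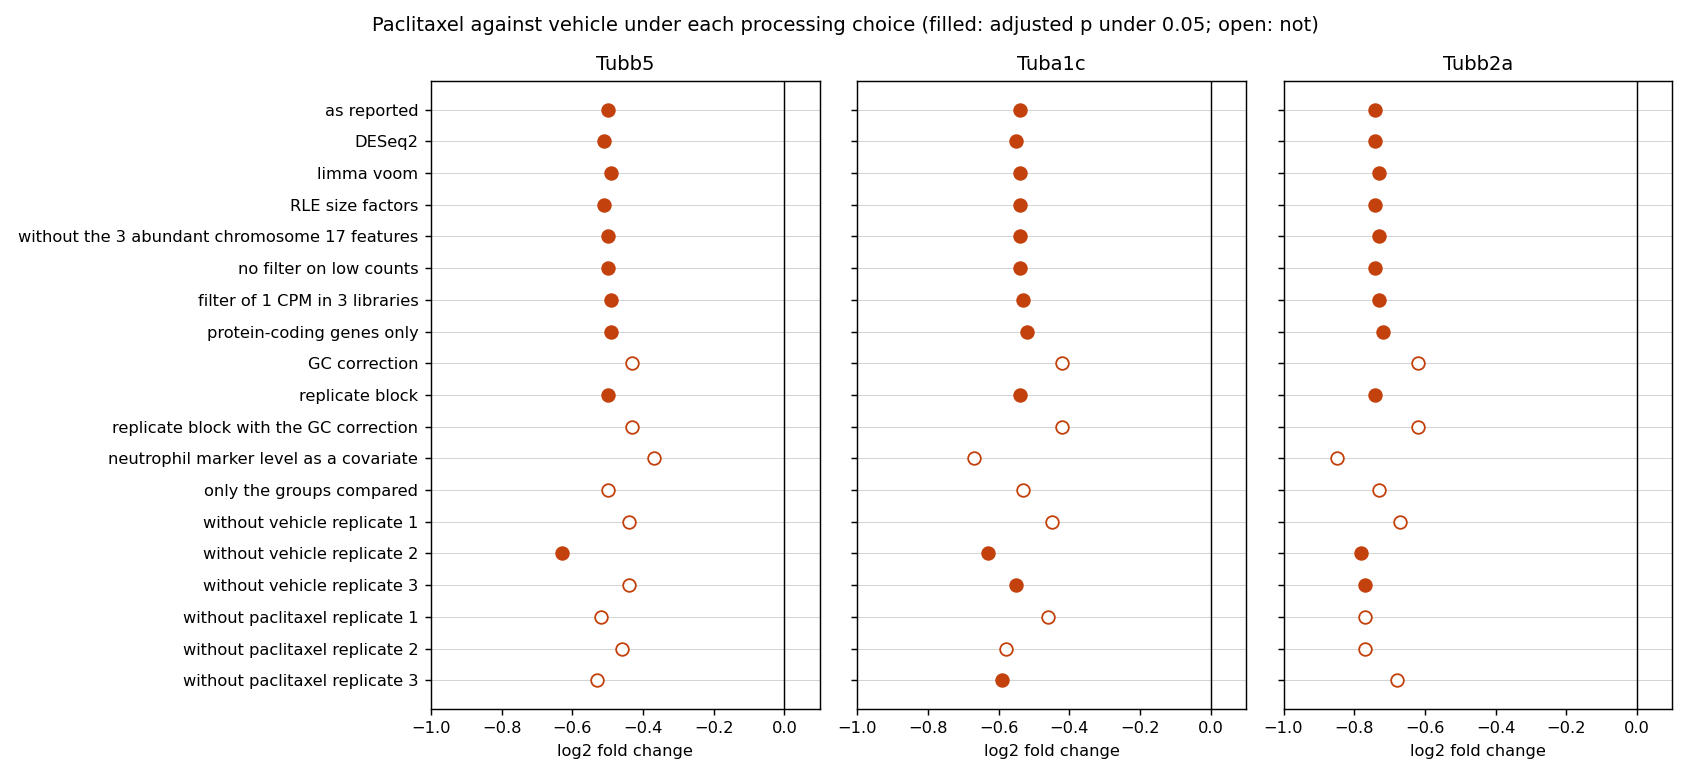
Log2 fold change with paclitaxel against vehicle (horizontal axis) of the 3 called tubulin genes under each processing choice (rows), filled where the adjusted p was under 0.05. All points lie below 0, and the open points are those of the GC correction (alone or with the replicate block), the neutrophil covariate, the fit of only the groups compared and most fits without 1 library.

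With MBQ-167 alone no tubulin gene passed the test. By edgeR 0 of 9 members passed (17 of 18252 genes did, 0.0931%), as with DESeq2 and limma voom, and 3 members had an unadjusted p under 0.05 (12.9% of all genes). The median of the 9 was -0.33, and 8 were below 0 (49.9% of all genes). Tubb5 read 975.5, 904.3 and 840.9 CPM, of which only the first exceeded the lowest vehicle library (-0.34 ± 0.13, adjusted p = 0.283). Tubb2a, with 11.2, 11.3 and 10.0 CPM (-0.47 ± 0.16, adjusted p = 0.228), and Tuba1c, with 49.2, 47.7 and 53.3 CPM (-0.36 ± 0.13, adjusted p = 0.252), were the 2 members whose libraries all lay below those of vehicle, against 8.79% of all genes.

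Other members were spread widely between the MBQ-167 libraries. Tuba1a had 54.4, 40 and 35.1 CPM, the first within the vehicle range and the others below it. Tuba1b had 25.1, 29.6 and 44.4 CPM, the last being the highest of all 12 libraries. Tuba4a read 33.1, 28.7 and 46.9 CPM, and Tubb4b 77.2, 64.0 and 81.4 CPM. Both overlapped the vehicle range. Tubb6 had 73.1, 61.3 and 77.6 CPM (-0.33 ± 0.16, adjusted p = 0.393). Tubb2b lay between 2.15 and 2.46 CPM, inside the vehicle range of 1.9 to 6.14 CPM.

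In the combination 1 of 9 members passed, Tuba1c, which fell (1.84% of all genes passed, 0.811% as lower). Its libraries had 41.7, 48.6 and 40.9 CPM, all below vehicle, with a log2 change of -0.55 ± 0.13 (SE; adjusted p = 0.0436). The pooled Tuba1 copies gave -0.40 ± 0.11 (adjusted p = 0.0781), limma voom gave an adjusted p of 0.0521, the GC correction 0.107 and the neutrophil covariate 0.177. Leaving out any 1 combination library, vehicle 1 or vehicle 3 also ended the call. All 9 log2 fold changes were below 0 (49.9% of all genes), with a median of -0.41, 5 had an unadjusted p under 0.05 (18.4%), and 5 members lay wholly below vehicle (9.86% of all genes).

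Tubb5 read 842.7, 881.1 and 843.5 CPM in the combination, the tightest of the 4 groups, and did not pass (-0.42 ± 0.13, adjusted p = 0.101) unless DESeq2 was used (adjusted p = 0.0201) or vehicle 2 left out (adjusted p = 0.0402). Tubb2a had 10.7, 13.9 and 11.2 CPM, between the vehicle and the paclitaxel libraries (-0.33 ± 0.16, adjusted p = 0.284). Tuba1a had 37.6, 41.8 and 41.6 CPM and Tubb4b 52.0, 71.2 and 60.1 CPM. These 4 members lay wholly below vehicle. Tubb6 spread over 57.4, 84.0 and 74 CPM, Tuba1b over 19.8, 26.9 and 28.0 CPM, Tuba4a over 24.3, 28.2 and 36.9 CPM and Tubb2b over 1.12, 2.23 and 2.63 CPM, each overlapping vehicle. Tubb2b had the largest log2 change of the 9 in the combination and did not pass (-1.06 ± 0.43, adjusted p = 0.204).

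**Figure D5:**
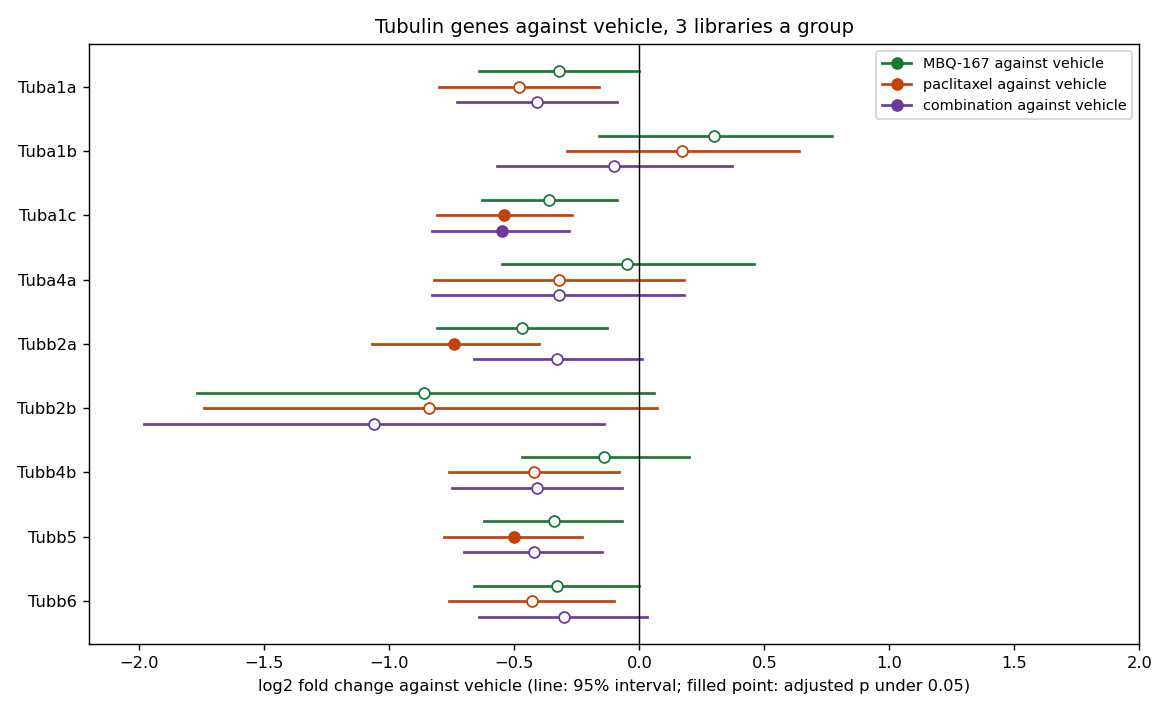
Log2 fold change of the 9 tested tubulin genes in each drug group against vehicle (horizontal axis), with 95% intervals as lines and filled points where the adjusted p was under 0.05. The 4 filled points are Tuba1c, Tubb2a and Tubb5 with paclitaxel and Tuba1c in the combination, and the intervals of Tubb2b are the widest.

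The comparisons with vehicle share the same 3 vehicle libraries. Between drug groups 0 of 9 members passed for the combination against MBQ-167 and 0 of 9 against paclitaxel, where edgeR called 0 genes of any kind (0%) and DESeq2 and limma voom also called no member. An unadjusted p under 0.05 was reached by 0 members against MBQ-167 (5.15% of all genes) and by 1 against paclitaxel (2.36%). That member was Tubb2a, higher in the combination than with paclitaxel by 0.41 ± 0.16 (95% interval 0.07 to 0.75, adjusted p = 1 by edgeR). Against MBQ-167 the log2 differences ran from -0.40 for Tuba1b to 0.14 for Tubb2a. Tubb2a and Tubb5 were the members whose combination libraries all lay above the paclitaxel libraries (3.45% of all genes). For Tubb5 the difference from paclitaxel was 0.08 ± 0.13, with an interval of -0.20 to 0.35. For Tuba1c it was -0.01 ± 0.13, with an interval of -0.29 to 0.26.

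The interaction term asks whether the log2 effects of the 2 drugs add up in the combination. By edgeR 0 of 9 members passed (0.0603% of all genes did), as with DESeq2 and limma voom, and 2 had an unadjusted p under 0.05 (9.83% of all genes). These were Tubb2a, at 0.88 ± 0.22 (95% interval 0.40 to 1.35, adjusted p = 0.224), and Tubb5, at 0.42 ± 0.18 (0.03 to 0.81, adjusted p = 0.473). The Tubb2a means behind this were 15 CPM in vehicle, 10.9 with MBQ-167, 9.01 with paclitaxel and 11.9 in the combination, so the combination mean lay above that of each single drug. The Tubb5 means were 1149, 906.9, 811.4 and 855.8 CPM in the same order.

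With the 6 libraries that had paclitaxel set against the 6 that had not, Tuba1c was the 1 of 9 members that passed (3.19% of all genes did, 0.981% as lower), at -0.37 ± 0.09 (SE, adjusted p = 0.041). It no longer passed with the GC correction (adjusted p = 0.2), the neutrophil covariate (0.178), the replicate block (0.0557), the Tuba1 copies added up (-0.29, 0.0617) or any 1 library left out other than vehicle 2 or vehicle 3 (0.0526 to 0.0977). Tubb5 gave -0.29 ± 0.091 (adjusted p = 0.0917) and Tubb2a -0.30 ± 0.11 (adjusted p = 0.157). All 9 were below 0 (50.6% of all genes), with a median of -0.30, and 5 had an unadjusted p under 0.05 (19.4%). The matching contrast for MBQ-167 gave 0 of 9 (edgeR called no gene, 0%, and 0 members had an unadjusted p under 0.05, against 5.31% of all genes). DESeq2 and limma voom also gave 0. The test of any difference over the 4 groups gave 0 of 9 by edgeR and by limma voom and 3 by DESeq2 (1.38% of all genes passed by edgeR), with 5 members at an unadjusted p under 0.05 (15.9% of all genes).

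The summed tubulin levels had lower means in the groups with paclitaxel, and the share of Tubb5 lay within 1 percentage point of vehicle in every group. The summed α level was 87.8, 71.9 and 87.1 CPM per kilobase in vehicle, 74, 66.6 and 79.1 with MBQ-167, 67.9, 61.3 and 65.2 with paclitaxel and 56.2, 66.4 and 65.9 in the combination. The groups with paclitaxel had 0.821 times the mean of the groups without (exact two-sided permutation p = 0.00433, n = 6 and 6, adjusted p = 0.169 over the 52 tests of sums, ratio and shares). The summed β level was 476.3, 356.9 and 462.9 in vehicle, 368.1, 335.8 and 331.1 with MBQ-167, 312.3, 289.2 and 319.0 with paclitaxel and 308.9, 343.3 and 320.9 in the combination, and its ratio was 0.812 (exact permutation p = 0.00649, adjusted p = 0.169). The libraries with and without paclitaxel overlapped for both sums. Against vehicle, where 3 libraries against 3 cannot give a p under 0.1, both sums lay wholly below vehicle with paclitaxel and in the combination.

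The ratio of β to α averaged 5.24 in vehicle, 4.74 ± 0.478 (SD, n = 3) with MBQ-167, 4.74 ± 0.15 with paclitaxel and 5.18 ± 0.31 in the combination. Paclitaxel libraries (4.60, 4.72 and 4.89) lay below vehicle libraries (5.43, 4.96 and 5.32), with the smallest p this design allows (exact permutation p = 0.1). The share of Tubb5 in the β pool differed from vehicle by -0.376 percentage points with paclitaxel (exact permutation p = 0.6). Within the α pool Tuba1b took 16.1%, 18.2% and 17.9% in vehicle and 29.4%, 20.2% and 24.2% with paclitaxel, a difference of 7.18 points, and 18.8%, 21.6% and 22.7% in the combination, a difference of 3.6 points (exact permutation p = 0.1 for each). Tuba1c went from 34.1% ± 2.22 in vehicle to 29.9% ± 1.19 with MBQ-167 without overlap, a difference of -4.17 points (exact permutation p = 0.1). No share or sum passed after adjustment over the 52 tests.

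Members rose and fell together across the 12 libraries to different degrees, which is given as a description, since the libraries share depth, GC trend and group. The Pearson correlation of log2 CPM with Tubb5 was 0.85 for Tuba1a, 0.84 for Tuba1c, 0.79 for Tubb2a, 0.76 for Tubb2b, 0.74 for Tubb6, 0.70 for Tubb4b, 0.48 for Tuba4a and -0.06 for Tuba1b. Tuba1b had no correlation above 0.44 with any member, and -0.17 with its near copy Tuba1a. Among 15848 genes that averaged 1 CPM or more, the 3 whose pattern over 12 libraries was most like Tubb5 were Hsp90ab1 (0.968), a cytosolic chaperone, Bag6 (0.962), a chaperone of newly made proteins, and Kctd10 (0.952). For Tuba1b they were Gpr39 (0.939), a receptor that senses zinc, Ubr3 (0.87) and Lxn (0.869), for Tubb6 they were Ulbp1 (0.913), Stk24 (0.907) and Iars (0.903), and for Tubb2b Sptbn1 (0.91), Gm12671 (0.906) and Pcbp2 (0.901). A search of so many genes over 12 libraries can return high values for unrelated genes, and how high was not tested. Tubb2b also had only 12 to 91 counts per library.

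Genes whose products fold or modify tubulin gave calls with paclitaxel against vehicle, and none with MBQ-167 alone or in the combination. The folding genes nevertheless had similar medians in all drug groups. Of 21 genes for folding cofactors and chaperones (the CCT ring, prefoldin and the tubulin cofactors), 3 fell with paclitaxel and none with MBQ-167 or in the combination by edgeR, with medians of -0.33, -0.31 and -0.32. Of all genes 2.49% passed as lower with paclitaxel, and 0.0931% and 1.84% passed in either direction with MBQ-167 and in the combination. Those that fell were Cct2 (-0.56 ± 0.12, adjusted p = 0.0204) and Tcp1 (-0.51 ± 0.13, adjusted p = 0.0354), subunits of the CCT ring that folds tubulin and actin, and Pfdn6 (-0.60 ± 0.14, adjusted p = 0.0284), a subunit of prefoldin that hands them over. Cct2 read 323.4, 257.5 and 252.5 CPM in vehicle and 165.7, 188.9 and 210.7 CPM with paclitaxel. Those groups did not overlap, and the MBQ-167 libraries (189.3 to 212.2 CPM) and combination libraries (193.9 to 197.9 CPM) overlapped the paclitaxel range. Without passing, Cct2 changed by -0.45 ± 0.12 with MBQ-167 (adjusted p = 0.159) and by -0.50 ± 0.12 in the combination (adjusted p = 0.0551). Pfdn6 changed by -0.62 ± 0.14 (adjusted p = 0.14) and -0.50 ± 0.14 (adjusted p = 0.0883) in the same order. Vbp1, another prefoldin subunit, went against the list: in the 6 paclitaxel libraries against the 6 others it rose by 0.32 ± 0.08 (adjusted p = 0.0457). An unadjusted p under 0.05 was reached by 11 of the 21 with MBQ-167 (12.9% of all genes), 12 with paclitaxel (22.6%) and 12 in the combination (18.4%).

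Of 20 tested enzymes that modify tubulin, 1 passed with paclitaxel, a share near the 5.66% of all genes: Agbl3, a carboxypeptidase that trims glutamates from tubulin tails, rose by 1.05 ± 0.27 (adjusted p = 0.0403) from 4.3, 2.4 and 5.0 CPM to 7.8, 7.3 and 9.1 CPM. Of 12 proliferation genes 1 passed and 7 had an unadjusted p under 0.05 with paclitaxel (5.66% and 22.6% of all genes). The gene that passed was Top2a, which untangles DNA in dividing cells. It rose by 0.50 ± 0.12 with paclitaxel (adjusted p = 0.0244) and by 0.42 ± 0.082 in the 6 paclitaxel libraries against the 6 others (adjusted p = 0.0193), from 295.4, 252.9 and 307.7 CPM in vehicle to 389, 438.9 and 383.3 CPM with paclitaxel. The list's median with paclitaxel was 0.09, while that of the tubulin genes was -0.48. Of the 12 proliferation genes 5 were below 0 with paclitaxel (50.2% of all genes).

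In the other 5 microtubule lists edgeR passed no gene in any comparison. With paclitaxel 3 of 10 genes of the γ-tubulin ring complex, 2 of 20 stabilising and 2 of 9 destabilising proteins had an unadjusted p under 0.05, near or below the 22.6% of all genes. With paclitaxel the medians were 0.23 for the 4 tested other tubulins, 0.01 for 10 genes of the γ-tubulin ring complex that starts new microtubules, -0.14 for 20 proteins that bind or stabilise microtubules, 0.04 for 9 that sever or destabilise them and -0.01 for the 4 genes of tubulin mRNA autoregulation. The smallest p against vehicle in each list belonged to Tubb4a in the combination (-0.92 ± 0.54, adjusted p = 0.392), and with paclitaxel to Tubgcp5 (0.46 ± 0.13, adjusted p = 0.0567), Map7d1 (-0.41 ± 0.12, adjusted p = 0.0597), Kif18a (0.66 ± 0.19, adjusted p = 0.0567) and Scaper (0.21 ± 0.16, adjusted p = 0.457).

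No promoter motif searched was found in all 3 of the members that fell with paclitaxel, whose promoters are shown because these genes fell together. The 250 bases before the RefSeq start (GRCm38.p6) are printed with CCAAT, the GC box GGGCGG and the TATA box TATAAA in capitals, on either strand. RefSeq promoters matched 8 of the 10 members, all but Tubb2b and Tubb6. They lie at chr17:35838302-35838551 on the minus strand for Tubb5, chr13:34078009-34078258 on the minus strand for Tubb2a and chr15:99029641-99029890 on the plus strand for Tuba1c.
Tubb5: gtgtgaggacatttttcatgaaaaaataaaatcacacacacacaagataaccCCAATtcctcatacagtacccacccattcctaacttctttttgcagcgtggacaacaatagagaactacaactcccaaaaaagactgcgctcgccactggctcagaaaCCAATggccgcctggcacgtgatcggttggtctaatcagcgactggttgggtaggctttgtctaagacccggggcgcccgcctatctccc
Tubb2a: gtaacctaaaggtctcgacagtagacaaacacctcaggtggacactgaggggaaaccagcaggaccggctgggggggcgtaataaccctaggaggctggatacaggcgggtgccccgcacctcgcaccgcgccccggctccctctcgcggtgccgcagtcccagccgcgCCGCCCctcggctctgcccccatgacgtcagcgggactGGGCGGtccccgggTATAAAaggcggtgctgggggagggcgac
Tuba1c: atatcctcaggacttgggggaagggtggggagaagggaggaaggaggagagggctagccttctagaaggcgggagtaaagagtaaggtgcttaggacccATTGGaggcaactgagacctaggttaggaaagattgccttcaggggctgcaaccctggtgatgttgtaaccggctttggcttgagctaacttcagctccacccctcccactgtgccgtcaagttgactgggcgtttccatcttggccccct
CCAAT was found 2 times before Tubb5, 1 time before Tuba1c and not before Tubb2a, and 5 of the 8 members had it, against 33.8% of all 32851 promoters. The GC box was found 2 times before Tubb2a and not before the other 2, in 6 of the 8 members and in 32.7% of all promoters. Among the 8, TATAAA was found before Tubb2a alone (12.4% of all promoters), as was TGACGTCA, the cyclic AMP response element (1.55%), and CACGTG, an E-box, before Tubb5 alone (6.02%). GAANNTTC, a form of the heat shock element core, was found in none of the 8 (6.69% of all promoters). Other arrangements of that core were not searched, so whether these promoters lack a heat shock element was not tested. Searches covered both strands, and the motifs did not overlap one another in the printed stretches. Tubb4b, singled out after its matches were seen, had CCAAT 5 times.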

How the data were processed

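The authors deposited a table of counts, 1 row per gene and 1 column per library, without normalization. The submitters' processing notes name HISAT2, HTSeq, DESeq2 and GRCm38, with no versions; the annotation, strand setting and handling of reads with several matches are not given in the sources at hand. Symbols, exon lengths, GC content and transcripts came from GENCODE vM21 and promoters from RefSeq (GRCm38.p6). Genes passing filterByExpr (minimum count 10) were fitted in 1 model of 12 libraries with edgeR 4.0.16 (quasi-likelihood, TMM, biological coefficient of variation 0.214, 8 residual degrees of freedom), adjusted by Benjamini-Hochberg over 18252 genes, with a threshold of 0.05. The code was tested on simulated data. Sums and shares used exact permutation tests (SciPy). Alternatives were DESeq2 1.42.0, limma voom 3.58.1, other scaling and filters, a spline GC offset (5 degrees of freedom), a neutrophil covariate, a replicate block and leaving out libraries; pooled copies and unshared length were added after seeing the data. The members and lists were chosen with earlier results of these data known. All 10 members were named, then passing genes of the microtubule and proliferation lists (at most 3 per list and comparison, or else the smallest p) and the 3 genes most correlated with Tuba1b, Tubb5, Tubb6 and Tubb2b; Krt8, Klrd1 and Slc7a11 were named after their values were seen. Tubb3 was under the filter. Some coding sequence of the Tuba1 genes is not reported here.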

Additional observations from a re-analysis of the deposited data

How the results depend on the processing

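Precision is limited by 3 libraries a group and, for Tubb2b and Tubb3, by low counts. The count of 3 tubulin genes passing with paclitaxel against vehicle fell to 0 with the GC correction, alone or with the replicate block, with the neutrophil covariate and with only the groups compared, and ran from 0 to 3 when 1 library was left out. The 1 in the combination became 2 with DESeq2 and 0 with limma voom, the GC correction, the replicate block, both together, the neutrophil covariate and only the groups compared, with a range of 0 to 2 when 1 library was left out. The 1 in the 6 paclitaxel libraries against the 6 others became 2 with DESeq2 and with no filter, and 0 with the GC correction, the replicate block, both together and the neutrophil covariate (0 to 2 without 1 library; Tuba1c passed in this contrast only without vehicle 2 or vehicle 3). The 0 for any difference over the 4 groups became 3 with DESeq2 and 1 with no filter. The cause of these changes was not tested. Whether replicate numbers pair the libraries was not settled. Of 18 same-number pairs, 6 had a correlation of deviations over 0.1 (range -0.175 to 0.252). Their mean was 0.032, against -0.016 for pairs of other numbers. The replicate block left 3 calls with paclitaxel. No called value changed sign in 575 recomputed member values; 12 values of uncalled members did, in 4 genes. Group differences in sums, ratio and shares counted as unchanged in all recomputations. With 3 libraries against 3, unchanged meant a shift smaller than the spread between libraries. Leaving out 1 of 3 libraries always moves a group mean by less than that group's SD, so those recomputations could not fail. They therefore do not show whether the differences are stable. With 6 libraries against 6, unchanged meant the same side of the threshold for the permutation p before adjustment. The sums, ratio and shares themselves depended on the length used. Per kilobase of unshared windows the vehicle means were 73.1% for the share of Tubb5 and 26.2% for that of Tuba1b. Per kilobase of exon they were 79.9% and 17.4%.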
